A study of Homo sapiens with 30 samples.

Results

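The UGT2B genes studied here encode UDP-glucuronosyltransferases, the enzymes that attach glucuronic acid to androgens and to other small lipophilic molecules. The 6 genes (UGT2B17, UGT2B15, UGT2B28, UGT2B11, UGT2B10 and UGT2B7) were taken by their symbols from 26443 genes with values in LNCaP cells, which derive from a human prostate cancer and respond to androgens. They were chosen by measured values: UGT2B17 was already known to stand high in the shBUB3 libraries, and UGT2B17 and UGT2B15 low in the shFOXA1 libraries. The values of the 6 genes in those 2 comparisons against the pLKO control are therefore a description and carry no test.

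RNA was sequenced from 30 libraries in 10 groups of 3. In the pLKO experiment, cells received an shRNA against USP7 (shUSP7), BUB3 (shBUB3) or FOXA1 (shFOXA1), or the pLKO control vector, and were taken after 5 days. In the siRNA experiment, cells received an siRNA against EZH2 (siEZH2) or a control siRNA (siCtrl) and were taken after 4 days. In the pGIPZ experiment, cells carried an shRNA against FOXA1 with HA-tagged FOXA1 carrying a lysine-to-alanine change (shFoxA1 + K295A), that shRNA with HA-tagged wild-type FOXA1 (shFoxA1 + WT), that shRNA alone (shFoxA1), or the pGIPZ control, also for 5 days; the stated range of samples leaves out the third K295A library. FOXA1 is a forkhead factor that makes closed chromatin accessible. USP7 removes ubiquitin from proteins, BUB3 works in the spindle checkpoint, and EZH2 is the enzyme that methylates histone H3 for the Polycomb group. Every group comes from the same line, and whether the 3 libraries of a group came from separate cultures is not stated. Adjusted p-values therefore measure the spread between these libraries, which may be technical.

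Glucuronidation makes a steroid water-soluble, so that it leaves the cell and is no longer active as a hormone. UGT2B17 and UGT2B15 are the main enzymes of this step in the human prostate: UGT2B17 acts on testosterone, dihydrotestosterone and androsterone, and UGT2B15 on dihydrotestosterone and androstanediol. Both are known as genes that androgens lower in LNCaP cells, and FOXA1 has been reported to act on them. UGT2B28 conjugates some steroids weakly, UGT2B11 has little known activity on androgens, UGT2B10 is known for N-glucuronidation of amines such as nicotine, and UGT2B7 is a liver and kidney enzyme that conjugates opioids and some steroids.

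The 6 genes lie on chromosome 4 within 757.9 kb (GRCh38, GENCODE 29), with other UGT2 genes and pseudogenes between them. UGT2B17 is at chr4:68537184-68568527 and UGT2B15 at chr4:68646630-68670628, both on the minus strand. UGT2B10 follows at chr4:68815993-68831196 (plus strand), UGT2B7 at chr4:69051363-69112987 (plus strand), UGT2B11 at chr4:69199951-69214731 (minus strand) and UGT2B28 at chr4:69280499-69295050 (plus strand). The genes are close copies. The longest transcripts of UGT2B15 and UGT2B17 were 96.36% identical over their aligned bases, and those of UGT2B11 and UGT2B28 96.31%, while UGT2B15 and UGT2B17 were between 80.52% and 83.41% identical to the other 4 genes. Of all 50-base windows of the UGT2B17 transcript, 27.47% also occurred in UGT2B15, and 12.74% of 100-base windows did. UGT2B11 shared 18.10% of its 50-base windows with UGT2B28 and 0.85% of its 100-base windows. With any other UGT gene, UGT2B11 shared 40.85% of 50-base and 9.30% of 100-base windows, and UGT2B10 31.67% and 6.60%. How the authors' counting treated such reads is not given in the sources used here. The values of these genes, within the pairs and beyond them, may therefore share reads.

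Promoter sequences are shown for the members that the RefSeq table (GRCh38.p14) matched, which were 4 of 6, because the comparisons turn on FOXA1, whose family binds the letters TGTTTAC or TATTTAC. Each is the 250 bases before the RefSeq start of the gene, read 5′ to 3′ on the strand of the gene, with matches to these letters on either strand in capitals. The positions are chr4:68670653-68670902 (minus strand) for UGT2B15, chr4:69214749-69214998 (minus strand) for UGT2B11, chr4:68815744-68815993 (plus strand) for UGT2B10 and chr4:69096224-69096473 (plus strand) for UGT2B7.
UGT2B15: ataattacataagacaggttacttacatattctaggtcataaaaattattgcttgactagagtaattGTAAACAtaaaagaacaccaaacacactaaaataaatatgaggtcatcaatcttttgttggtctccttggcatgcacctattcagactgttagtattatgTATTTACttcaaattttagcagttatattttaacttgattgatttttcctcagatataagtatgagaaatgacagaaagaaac
UGT2B11: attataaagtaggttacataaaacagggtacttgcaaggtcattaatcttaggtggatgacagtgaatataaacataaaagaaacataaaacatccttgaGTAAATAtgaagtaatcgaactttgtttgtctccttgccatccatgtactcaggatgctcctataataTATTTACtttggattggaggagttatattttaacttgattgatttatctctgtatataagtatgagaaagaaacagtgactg
UGT2B10: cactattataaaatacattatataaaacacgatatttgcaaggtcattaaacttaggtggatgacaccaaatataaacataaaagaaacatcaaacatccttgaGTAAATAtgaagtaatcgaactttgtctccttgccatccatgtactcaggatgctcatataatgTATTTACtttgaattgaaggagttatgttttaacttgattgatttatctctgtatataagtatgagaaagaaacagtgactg
UGT2B7: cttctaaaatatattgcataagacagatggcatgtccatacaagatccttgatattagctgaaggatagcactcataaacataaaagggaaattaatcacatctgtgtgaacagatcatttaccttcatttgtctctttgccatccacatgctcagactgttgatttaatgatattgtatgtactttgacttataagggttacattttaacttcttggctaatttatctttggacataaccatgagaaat

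UGT2B15, UGT2B11 and UGT2B10 each held 2 matches, whereas 1851 of 35116 promoters of this length (5.3%) held any. That share is over all promoters, not over promoters of like base composition, so it does not show that matches are enriched here. The match nearer to the start read TATTTAC in all 3, beginning 83 bases before the start in UGT2B15 and 82 in UGT2B11 and UGT2B10. The farther match read GTAAACA 183 bases before the start in UGT2B15, and GTAAATA 150 and 146 bases before it in UGT2B11 and UGT2B10. The 3 promoters are related in sequence: UGT2B10 and UGT2B11 were 93.1% identical over aligned bases, and UGT2B15 was 79.4% and 78.9% identical to them. UGT2B7 held no match to the 2 strings, and it was 68.0% to 73.0% identical to the others. Variants of these letters, such as ATAAACA in the UGT2B7 sequence above, were not searched. The absence of a match therefore does not show the absence of a forkhead site.

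Neither table gives read totals. From the steps between low values, pLKO-experiment libraries had an estimated 0.900 to 1.30 times the reads of the first pLKO control library, and siRNA libraries 0.602 to 0.831 times. The pGIPZ-experiment libraries had 0.847 to 1.30 times the reads of the first pGIPZ control library. In the third shBUB3 library, FPKM values added up to 367614, outside the 235344 to 306578 found among the remaining pLKO-experiment libraries. All 7 luminal prostate markers used (KLK3, KRT8, KRT18, FOLH1, TMPRSS2, STEAP2 and HOXB13) were at 1 or more in every group, their summed level lowest in siEZH2 at 627 to 724 FPKM. Of 9 liver markers between 0 and 2 were at 1 or more in a group, and of 12 basal, stromal, immune and endothelial markers between 2 and 4. In bulk RNA, fewer cells of a type and less RNA per cell cannot be told apart.

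In the control libraries of the pLKO and siRNA experiments the family was led by UGT2B11, UGT2B17 and UGT2B15. In the pLKO control, UGT2B11 averaged 68.6 ± 0.965, UGT2B17 29.7 ± 0.922, UGT2B15 25.8 ± 0.639, UGT2B28 15.8 ± 1.45, UGT2B10 2.78 ± 0.117 and UGT2B7 0.251 ± 0.120 FPKM (SD, n = 3). The order was the same in the siCtrl libraries, and no neighbours in it overlapped in either control. In the pGIPZ control the order was headed by UGT2B17 at 11.4 ± 0.619 RPKM, followed by UGT2B11 at 8.13 ± 0.786, UGT2B15 at 6.67 ± 0.105, UGT2B28 at 2.02 ± 0.0763, UGT2B10 at 0.577 ± 0.097 and UGT2B7 at 0.103 ± 0.0347 RPKM (SD, n = 3). FPKM and RPKM both divide reads by gene length and library total, but the tables were normalized separately, so levels are not tested between them.

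**Figure D1:**
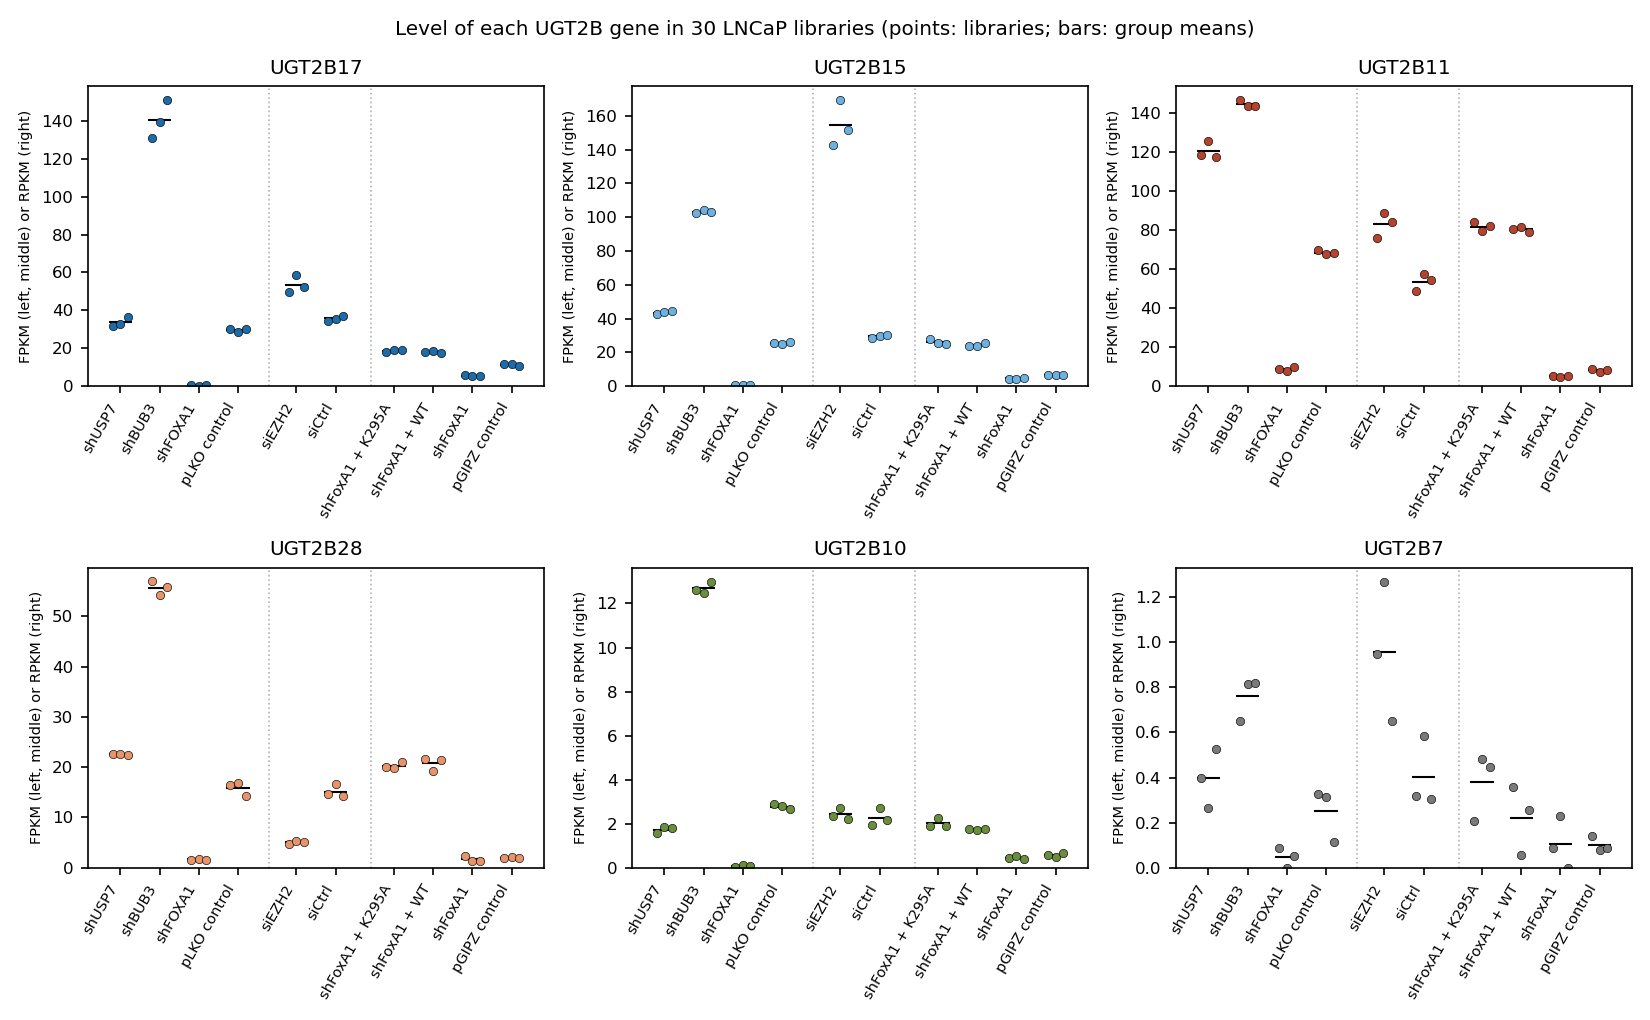
Level of each UGT2B gene in every library (points) with the group mean (bars), in FPKM for the pLKO and siRNA experiments and in RPKM for the pGIPZ experiment; dotted lines part the experiments. UGT2B17 reached 131 to 151 FPKM in shBUB3 and stayed under 0.5 FPKM in shFOXA1, while UGT2B15 was highest in siEZH2.

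UGT2B17 and UGT2B15 stood far above the pLKO control in shBUB3 and far below it in shFOXA1, the 2 comparisons used to choose the genes. UGT2B17 was at 131, 139.5 and 151 FPKM in shBUB3, against 30.3, 28.7 and 30.3 FPKM in the pLKO control. UGT2B15 was at 103, 104 and 103 FPKM in shBUB3, against 25.8, 25.1 and 26.4 FPKM in the pLKO control. Both genes lay above every control library in every shBUB3 library, by 4.72-fold and 4.00-fold of the means. On log2(value + 1), which understates changes of low values, the differences were 2.20 ± 0.066 for UGT2B17 and 1.96 ± 0.055 for UGT2B15 (SE). Without the third shBUB3 library they were 2.15 and 1.96.

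In shFOXA1, UGT2B17 was at 0.380, 0.327 and 0.464 FPKM, against 30.3, 28.7 and 30.3 FPKM in the pLKO control. UGT2B15 was at 0.614, 0.755 and 0.886 FPKM in shFOXA1, against 25.8, 25.1 and 26.4 FPKM in the pLKO control. The means were 76.3-fold lower for UGT2B17 and 34.3-fold lower for UGT2B15 in shFOXA1. On log2(value + 1) the differences were -4.47 ± 0.066 and -3.94 ± 0.055 (SE). An estimate from the value steps puts 16 to 19 reads behind each shFOXA1 value of UGT2B17 and 31 to 36 behind each of UGT2B15, so these folds rest on few reads. FOXA1 RNA itself was at 59.0 ± 1.68 FPKM in shFOXA1, against 116 ± 0.191 FPKM in the pLKO control (SD, n = 3 each).

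The other members stood on the same side of the control as UGT2B17 in both groups. UGT2B28, the weaker steroid-conjugating enzyme, was at 57.0, 54.2 and 55.8 FPKM in shBUB3 and at 1.63, 1.81 and 1.60 FPKM in shFOXA1, against 16.4, 17 and 14.2 FPKM in the pLKO control. UGT2B11 was at 147, 144 and 144 FPKM in shBUB3 and at 8.95, 7.91 and 9.79 FPKM in shFOXA1, against 69.7, 67.8 and 68.4 FPKM in the pLKO control. The UGT2B28 mean was 3.51-fold higher in shBUB3 and 9.42-fold lower in shFOXA1, and the UGT2B11 mean 2.11-fold higher and 7.73-fold lower. UGT2B10, the amine-conjugating enzyme, was at 12.6, 12.5 and 13.0 FPKM in shBUB3 and at 0.0503, 0.101 and 0.0861 FPKM in shFOXA1, against 2.87, 2.81 and 2.65 FPKM in the pLKO control. UGT2B7 was at 0.650, 0.814 and 0.820 FPKM in shBUB3, and at 0.0878 and 0.0537 FPKM with 1 library listed at 0 in shFOXA1, against 0.327, 0.313 and 0.112 FPKM in the pLKO control. The UGT2B10 mean was 4.57-fold higher in shBUB3 and 35.1-fold lower in shFOXA1, where its difference on the log scale was -1.81 with a pseudocount of 1 and -4.02 with 0.1. The shFOXA1 values of UGT2B10 and UGT2B7 rest on an estimated 2 to 4 and 0 to 4 reads.

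All 6 members were without overlap between shBUB3 and the pLKO control, where 66.6% of the 12524 genes tested were, and all 6 between shFOXA1 and the pLKO control, where 79.4% were. UGT2B7 never reached 1 FPKM or RPKM in 3 libraries of an experiment, and the other 5 passed that filter. On log2(value + 1) these 5 were at least 2-fold higher in shBUB3, as were 2.72% of all genes, and at least 2-fold lower in shFOXA1, as were 8.87%. Their median differences were 1.86 in shBUB3 and -2.82 in shFOXA1, beside 0.007 and -0.152 over all genes. Since these comparisons led to the choice of the genes, the counts are not evidence about them.

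The knockdown of USP7 gave smaller differences that did not all point one way. It uses the same pLKO control libraries as the comparisons that led to the choice. Of the 5 members tested, 4 rose and 1 fell in shUSP7, beside 29.1% of all genes called higher and 33.0% called lower by limma at an adjusted p under 0.05. UGT2B15 was at 42.5, 43.7 and 44.5 FPKM in shUSP7, against 25.8, 25.1 and 26.4 FPKM in the pLKO control (log2 difference 0.73 ± 0.055, limma adjusted p = 4.0e-07). UGT2B11 was at 118, 126 and 117 FPKM in shUSP7, against 69.7, 67.8 and 68.4 FPKM in the pLKO control (0.80 ± 0.064, limma adjusted p = 6.2e-07). UGT2B28 was at 22.7, 22.5 and 22.4 FPKM in shUSP7, against 16.4, 17 and 14.2 FPKM in the pLKO control (0.49 ± 0.062, limma adjusted p = 3.2e-05). These 3 genes lay above every control library in every shUSP7 library, and 5 of the 6 members were without overlap between the groups, as were 76.6% of all genes.

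UGT2B10 went the other way: it fell to 1.56, 1.83 and 1.79 FPKM in shUSP7, against 2.87, 2.81 and 2.65 FPKM in the pLKO control (-0.47 ± 0.058, limma adjusted p = 2.5e-05). UGT2B17, the other main androgen-conjugating enzyme beside UGT2B15, was at 31.9, 33.0 and 36.3 FPKM in shUSP7, against 30.3, 28.7 and 30.3 FPKM in the pLKO control. Its groups did not overlap, but the difference was 0.17 ± 0.066 with a limma adjusted p of 0.0389. That call ended when any pLKO control library was left out (limma adjusted p = 0.0655 without the first, 0.125 without the second and 0.0634 without the third). It also ended without the second (0.0624) or the third (0.163) shUSP7 library. UGT2B7 overlapped, at 0.399, 0.264 and 0.526 FPKM in shUSP7 and 0.327, 0.313 and 0.112 FPKM in the pLKO control. USP7 RNA was at 6.21 ± 0.143 FPKM in shUSP7, against 28.2 ± 0.517 FPKM in the pLKO control, and BUB3 RNA at 4.00 ± 0.629 FPKM in shBUB3, against 36.3 ± 2.34 FPKM (SD, n = 3 each). BUB3 RNA was also below the pLKO control in shFOXA1, at 15.6 FPKM, and in shUSP7, at 28.4 FPKM (limma adjusted p = 1.2e-07 and 0.00293). USP7 RNA was at 21.9 FPKM in shFOXA1 and 32.6 FPKM in shBUB3 (limma adjusted p = 8.0e-05 and 0.00519).

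The knockdown of EZH2 split the family. UGT2B15 rose to 143, 169 and 152 FPKM in siEZH2, against 28.5, 29.5 and 30.5 FPKM in siCtrl, a 5.24-fold higher mean (2.35 ± 0.076, limma adjusted p = 3.3e-08). UGT2B17 rose to 49.5, 58.7 and 52.1 FPKM in siEZH2, against 34.6, 35.6 and 36.9 FPKM in siCtrl, a 1.50-fold higher mean (0.57 ± 0.077, limma adjusted p = 1.1e-04). UGT2B11 rose to 76.0, 88.9 and 84.3 FPKM in siEZH2, against 49.1, 57.4 and 54.5 FPKM in siCtrl (0.62 ± 0.083, limma adjusted p = 9.8e-05). UGT2B15 thus became the highest member in siEZH2, whereas UGT2B11 led in siCtrl.

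UGT2B28 fell in siEZH2, although its transcript is nearly that of UGT2B11. It was at 4.65, 5.33 and 5.09 FPKM in siEZH2, against 14.6, 16.7 and 14.2 FPKM in siCtrl, a 3.02-fold lower mean (-1.42 ± 0.088, limma adjusted p = 5.8e-07). UGT2B10 was at 2.33, 2.71 and 2.23 FPKM in siEZH2 and at 1.96, 2.70 and 2.17 FPKM in siCtrl. That difference of 0.07 ± 0.111 did not pass the test (95% interval -0.18 to 0.32, limma adjusted p = 0.612). In all, 3 of 5 members tested rose and 1 fell, beside 20.3% of 11908 genes called higher and 43.0% called lower. UGT2B7 was at 0.947, 1.27 and 0.652 FPKM in siEZH2, against 0.319, 0.586 and 0.303 FPKM in siCtrl. With it, 5 of the 6 members were without overlap, as were 68.0% of all genes. EZH2 RNA was at 4.98 ± 0.128 FPKM in siEZH2, against 12.6 ± 0.908 FPKM in siCtrl, and FOXA1 RNA fell to 91.2 ± 5.40 FPKM in siEZH2, against 133 ± 3.17 FPKM in siCtrl (SD, n = 3 each; limma adjusted p = 5.8e-05 for FOXA1). Low EZH2 RNA was not particular to siEZH2. It was at 4.55 FPKM in shBUB3, 5.87 FPKM in shFOXA1 and 6.27 FPKM in shUSP7, against 12.6 FPKM in the pLKO control (largest limma adjusted p = 1.4e-07). In shFoxA1 it did not differ from the pGIPZ control by the test (limma adjusted p = 0.605), and it rose in both re-expression groups.

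The pGIPZ experiment lowered FOXA1 from another vector, with libraries outside the comparisons used to choose the genes. FOXA1 RNA was at 82.5 ± 1.87 RPKM in shFoxA1, against 132 ± 2.38 RPKM in the pGIPZ control (SD, n = 3 each; -0.67 ± 0.024, limma adjusted p = 7.4e-10). Of 5 members tested, 3 fell, beside 24.2% of 12563 genes called lower and 25.0% called higher. UGT2B17 fell to 5.86, 5.21 and 5.60 RPKM in shFoxA1, against 11.9, 11.7 and 10.7 RPKM in the pGIPZ control (-0.92 ± 0.049, limma adjusted p = 2.7e-08). UGT2B11 fell to 5.03, 4.94 and 4.99 RPKM in shFoxA1, against 8.95, 7.38 and 8.07 RPKM in the pGIPZ control (-0.61 ± 0.051, limma adjusted p = 1.4e-06). UGT2B15 fell to 4.45, 4.43 and 4.93 RPKM in shFoxA1, against 6.59, 6.79 and 6.64 RPKM in the pGIPZ control (-0.46 ± 0.052, limma adjusted p = 1.9e-05). None of these 3 genes overlapped between the groups, as was the case for 56.4% of all genes, and the mean of UGT2B17 was 2.06-fold lower, of UGT2B11 1.63-fold and of UGT2B15 1.45-fold.

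UGT2B28 did not pass the test in shFoxA1 with all libraries. It was at 2.39, 1.43 and 1.40 RPKM in shFoxA1, against 2.00, 2.11 and 1.96 RPKM in the pGIPZ control (-0.16 ± 0.108, 95% interval -0.40 to 0.08, limma adjusted p = 0.249). The first shFoxA1 library lay above the control libraries and the other 2 below them. Without that library the difference was -0.32 with a limma adjusted p of 9.5e-04. Since that library is singled out by its value, this p shows only how far the result hangs on 1 library. UGT2B10 was at 0.422, 0.530 and 0.409 RPKM in shFoxA1 and 0.564, 0.487 and 0.680 RPKM in the pGIPZ control, which overlap (-0.12 ± 0.085, 95% interval -0.30 to 0.07, limma adjusted p = 0.283). In this experiment UGT2B10 passed the filter only through the 2 groups with re-expressed FOXA1. UGT2B7 was at 0.0876 and 0.231 RPKM with 1 library listed at 0 in shFoxA1, against 0.142, 0.0772 and 0.0885 RPKM in the pGIPZ control. The 12 basal, stromal, immune and endothelial markers summed to 43.0 to 47.4 RPKM in shFoxA1, against 21.5 to 24.0 RPKM in the pGIPZ control. Of 4 tested, 2 rose, CD68 to 33.7 RPKM in shFoxA1, against 13.2 RPKM in the control, and KRT14 to 6.47 RPKM in shFoxA1, against 2.58 RPKM in the control (limma adjusted p = 8.8e-08 and 3.6e-05), and 2 fell; their part in the UGT2B values was not tested.

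With re-expressed FOXA1, UGT2B17, UGT2B15, UGT2B11 and UGT2B28 stood above the pGIPZ control as well as above shFoxA1, most of all UGT2B11 and UGT2B28. UGT2B11 rose to 80.6, 81.6 and 79.3 RPKM in shFoxA1 + WT, against 5.03, 4.94 and 4.99 RPKM in shFoxA1, a 16.1-fold higher mean (3.77 ± 0.051, limma adjusted p = 2.9e-13). UGT2B28 rose to 21.7, 19.3 and 21.4 RPKM in shFoxA1 + WT, against 2.39, 1.43 and 1.40 RPKM in shFoxA1, an 11.9-fold higher mean (3.01 ± 0.108, limma adjusted p = 7.1e-10). UGT2B15 rose to 23.9, 23.5 and 25.7 RPKM in shFoxA1 + WT, against 4.45, 4.43 and 4.93 RPKM in shFoxA1, a 5.30-fold higher mean (2.18 ± 0.052, limma adjusted p = 2.5e-11). UGT2B11 and UGT2B28 had the largest ratios of the 6 genes.

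UGT2B17 rose to 17.9, 18.6 and 17.7 RPKM in shFoxA1 + WT, against 5.86, 5.21 and 5.60 RPKM in shFoxA1, a 3.25-fold higher mean (1.54 ± 0.049, limma adjusted p = 2.6e-10). These 4 genes passed the filter in every group of the experiment, and all 4 rose in shFoxA1 + WT, beside 36.6% of all genes called higher and 18.9% called lower. All 4 also passed 2-fold on log2(value + 1), beside 1.17%, and were without overlap, as were 61.7%. UGT2B10 was at 1.75, 1.70 and 1.77 RPKM in shFoxA1 + WT, against 0.422, 0.530 and 0.409 RPKM in shFoxA1 (0.92 ± 0.085); since it was kept only through the groups where it is high, its differences from shFoxA1 and from the pGIPZ control are a description with no test. FOXA1 RNA was at 152 ± 0.899 RPKM in shFoxA1 + WT, against 82.5 ± 1.87 RPKM in shFoxA1 and 132 ± 2.38 RPKM in the pGIPZ control (SD, n = 3 each).

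Set against the pGIPZ control, whose libraries the shFoxA1 comparison shares, the same 4 rose in shFoxA1 + WT, beside 33.7% of all genes called higher and 11.8% called lower, and were without overlap, as were 53.6%. The differences were 3.16 ± 0.051 for UGT2B11, 2.85 ± 0.108 for UGT2B28, 1.72 ± 0.052 for UGT2B15 and 0.62 ± 0.049 for UGT2B17, the largest limma adjusted p being 1.9e-06. UGT2B11 and UGT2B28 stood 9.89-fold and 10.3-fold above the control mean, and UGT2B17 1.58-fold. FOXA1 RNA was 1.15-fold above the control mean in the same libraries (0.21 ± 0.024, limma adjusted p = 4.0e-05). Whether the FOXA1 reads come from the cells' own gene or from the construct was not tested.

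K295A FOXA1 gave levels close to those with wild-type FOXA1. In shFoxA1 + K295A, UGT2B11 was at 84.1, 79.7 and 82.1 RPKM, UGT2B15 at 27.9, 25.7 and 25.0 RPKM, and UGT2B28 at 19.9, 19.8 and 20.9 RPKM. UGT2B17 was at 18.1, 19.1 and 19.2 RPKM and UGT2B10 at 1.89, 2.27 and 1.91 RPKM in shFoxA1 + K295A. Against shFoxA1, UGT2B11, UGT2B28, UGT2B15 and UGT2B17 (4 of 4) rose in shFoxA1 + K295A, beside 38.7% of all genes called higher and 18.3% called lower, by 3.79 ± 0.051 for UGT2B11, 2.97 ± 0.108 for UGT2B28, 2.28 ± 0.052 for UGT2B15 and 1.59 ± 0.049 for UGT2B17 (largest limma adjusted p = 8.4e-10). Against the pGIPZ control these 4 rose as well, beside 37.8% called higher and 12.8% called lower, from 0.67 ± 0.049 for UGT2B17 to 3.19 ± 0.051 for UGT2B11 (largest limma adjusted p = 8.5e-07). The 4 genes were without overlap in both comparisons, as were 63.6% of all genes against shFoxA1 and 57.7% against the pGIPZ control.

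The direct comparison of the 2 FOXA1 forms called 0 of 5 members, beside 0.183% of all genes called in either direction by limma. No member reached an unadjusted p under 0.05 (0 of 5), the smallest being 0.0809. The difference of shFoxA1 + K295A minus shFoxA1 + WT was 0.14 for UGT2B10 (95% interval -0.05 to 0.32), 0.10 for UGT2B15 (-0.01 to 0.21), 0.06 for UGT2B17 (-0.05 to 0.16), 0.03 for UGT2B11 (-0.09 to 0.14) and -0.04 for UGT2B28 (-0.27 to 0.20). The limma adjusted p-values lay between 0.548 and 0.945. UGT2B10 was the member without overlap, at 1.89, 2.27 and 1.91 RPKM in shFoxA1 + K295A and 1.75, 1.70 and 1.77 RPKM in shFoxA1 + WT, as were 16.0% of all genes. These intervals exclude differences above 0.32 on this scale in either direction, and a p that misses the threshold does not show that the 2 forms act alike. UGT2B7 was at 0.208, 0.484 and 0.448 RPKM in shFoxA1 + K295A and 0.357, 0.0559 and 0.255 RPKM in shFoxA1 + WT, which overlap.

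**Figure D2:**
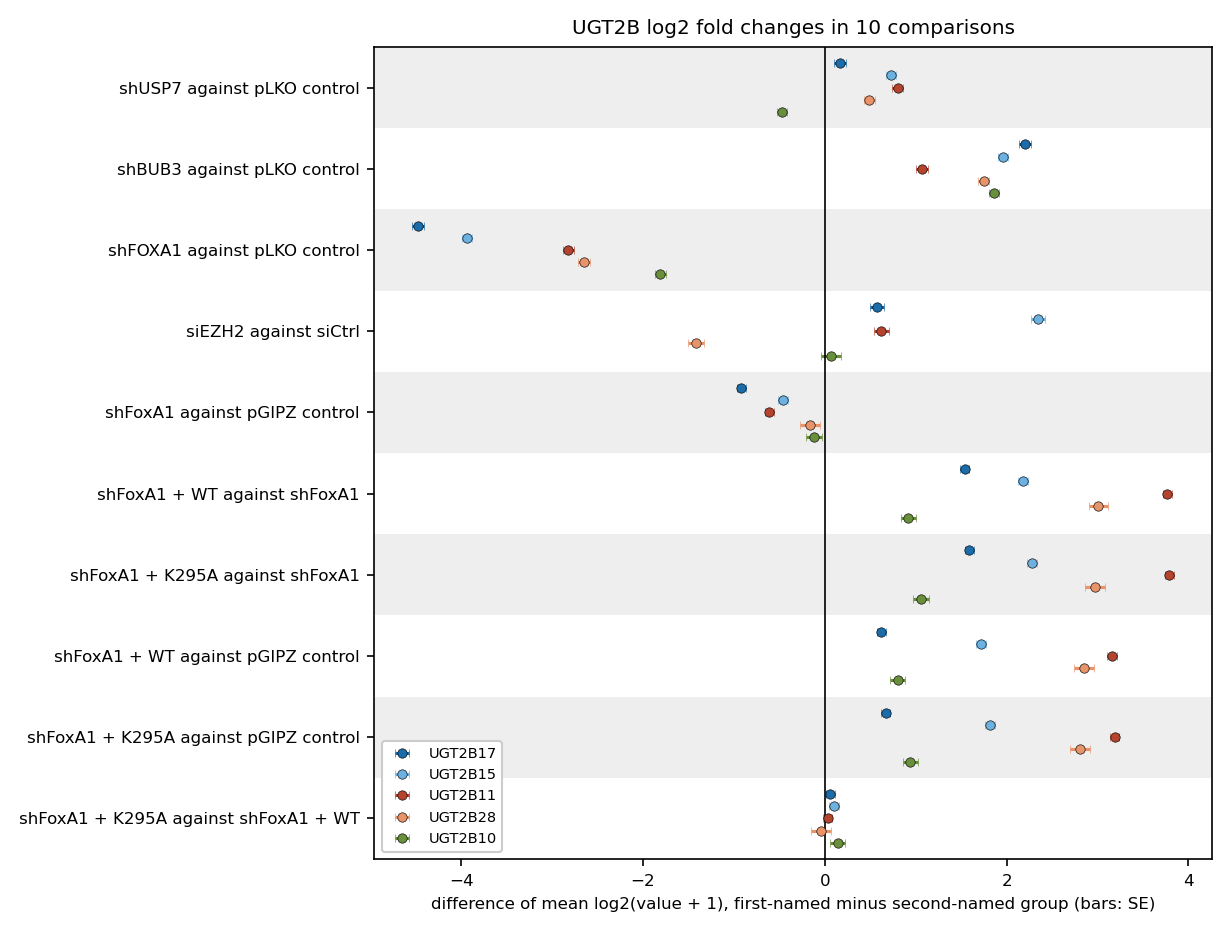
Difference of mean log2(value + 1) for the 5 UGT2B genes that passed the filter in each of 10 comparisons, first-named group minus second-named group, with the SE as bars. The shBUB3 and shFOXA1 rows were used to choose the genes; UGT2B28 lies at -1.42 and UGT2B15 at 2.35 in siEZH2, and the bottom row, K295A against WT, lies between -0.04 and 0.14. In the rows of the pGIPZ experiment UGT2B10 was kept only through the re-expression groups.

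The summed level of the 6 genes gives the family's size per library. It averaged 458 ± 8.36 FPKM in shBUB3, 222 ± 4.78 FPKM in shUSP7 and 11.8 ± 0.992 FPKM in shFOXA1, against 143 ± 1.98 FPKM in the pLKO control (SD, n = 3 each). It averaged 299 ± 25.1 FPKM in siEZH2, against 137 ± 6.89 FPKM in siCtrl. In the pGIPZ experiment the sum was 149.6 ± 2.59 RPKM in shFoxA1 + K295A, 146 ± 0.823 RPKM in shFoxA1 + WT and 17.4 ± 0.744 RPKM in shFoxA1, against 28.9 ± 1.05 RPKM in the pGIPZ control. No library of a knockdown or re-expression group overlapped its control in this sum.

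The make-up of the sum differed between groups as well as its size, as a description with no test. UGT2B11 held 75.0% ± 2.1 of it in shFOXA1, against 48.0% ± 0.15 in the pLKO control, while UGT2B17 and UGT2B15 held 3.28% ± 0.31 and 6.35% ± 0.95 in shFOXA1, the smallest mean shares of these genes in the 10 groups. UGT2B17 held 30.7% ± 1.6 in shBUB3, against 20.8% ± 0.54 in the pLKO control. UGT2B15 held 51.6% ± 0.34 in siEZH2, against 21.6% ± 0.76 in siCtrl, and UGT2B28 1.68% ± 0.044 in siEZH2, against 11.1% ± 0.75 in siCtrl. In the re-expression groups UGT2B11 held 54.8% ± 0.54 (K295A) and 55.3% ± 1.0 (WT), against 28.6% ± 0.94 in shFoxA1 and 28.1% ± 2.0 in the pGIPZ control (SD, n = 3 each). The UGT2B11 share was thus close to that of the control in shFoxA1 and above it in shFOXA1, a difference between experiments that was not tested.

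**Figure D3:**
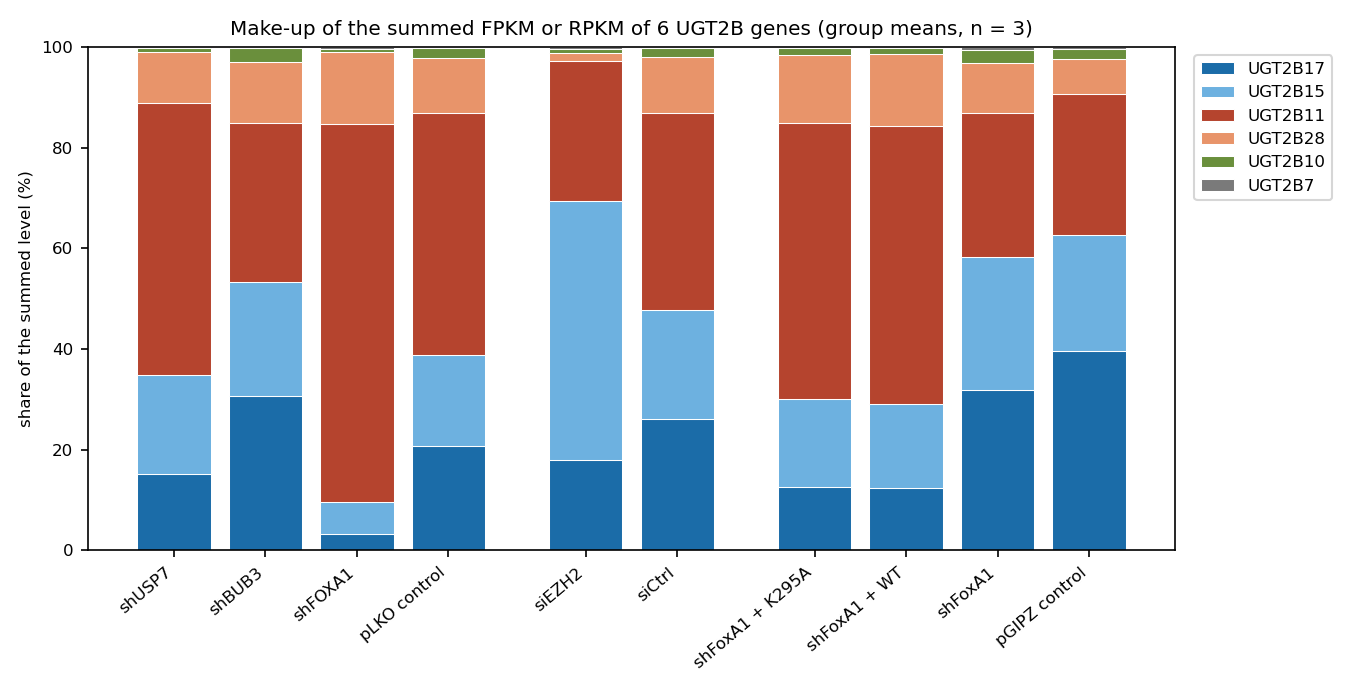
Share (%) of each UGT2B gene in the summed FPKM (pLKO and siRNA experiments) or RPKM (pGIPZ experiment) of the 6 genes, as means of 3 libraries per group. UGT2B11 fills 75.0% of the bar in shFOXA1 and UGT2B15 51.6% in siEZH2.

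Ratios between the close copies show how far members that may share reads moved apart. The ratio of UGT2B15 to UGT2B17 was 2.88 to 2.91 in siEZH2, against 0.821 to 0.830 in siCtrl. It was 1.22 to 1.33 in shUSP7, against 0.852 to 0.876 in the pLKO control. In the pGIPZ experiment it was 1.30 to 1.54 in shFoxA1 + K295A, 1.27 to 1.45 in shFoxA1 + WT and 0.759 to 0.880 in shFoxA1, against 0.554 to 0.618 in the pGIPZ control. The ratio was thus above that of the control in every library of siEZH2, shUSP7, shFoxA1 and both re-expression groups. In the comparisons used to choose the genes, which have no test, it was 0.682 to 0.784 in shBUB3, below every control library, and 1.62 to 2.31 in shFOXA1, above them, against 0.852 to 0.876 in the pLKO control. The exact permutation test of 3 against 3 libraries gave p = 0.1 for siEZH2, shUSP7, shFoxA1 and both re-expression groups, which is the smallest it can give. The ratio did not separate K295A from WT (p = 0.6, exact permutation test, two-sided).

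The ratio of UGT2B28 to UGT2B11 was 0.0600 to 0.0611 in siEZH2, against 0.261 to 0.297 in siCtrl, a log2 difference of -2.22. It was 0.179 to 0.191 in shUSP7, against 0.208 to 0.250 in the pLKO control. Both had p = 0.1, again the smallest possible in an exact permutation test. In shFoxA1 the ratio was 0.2815 to 0.475, above every library of both re-expression groups (p = 0.1 each, exact permutation test). That range overlapped the pGIPZ control (p = 0.2, exact permutation test). The ratio in the re-expression groups, 0.237 to 0.255 (K295A) and 0.237 to 0.270 (WT), overlapped that of the pGIPZ control at 0.223 to 0.285. It was 0.376 to 0.388 in shBUB3 and 0.164 to 0.229 in shFOXA1, which as contrasts used to choose the genes have no test. The 2 pairs thus parted most in siEZH2, UGT2B15 upward and UGT2B28 downward relative to its close copy.

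**Figure D4:**
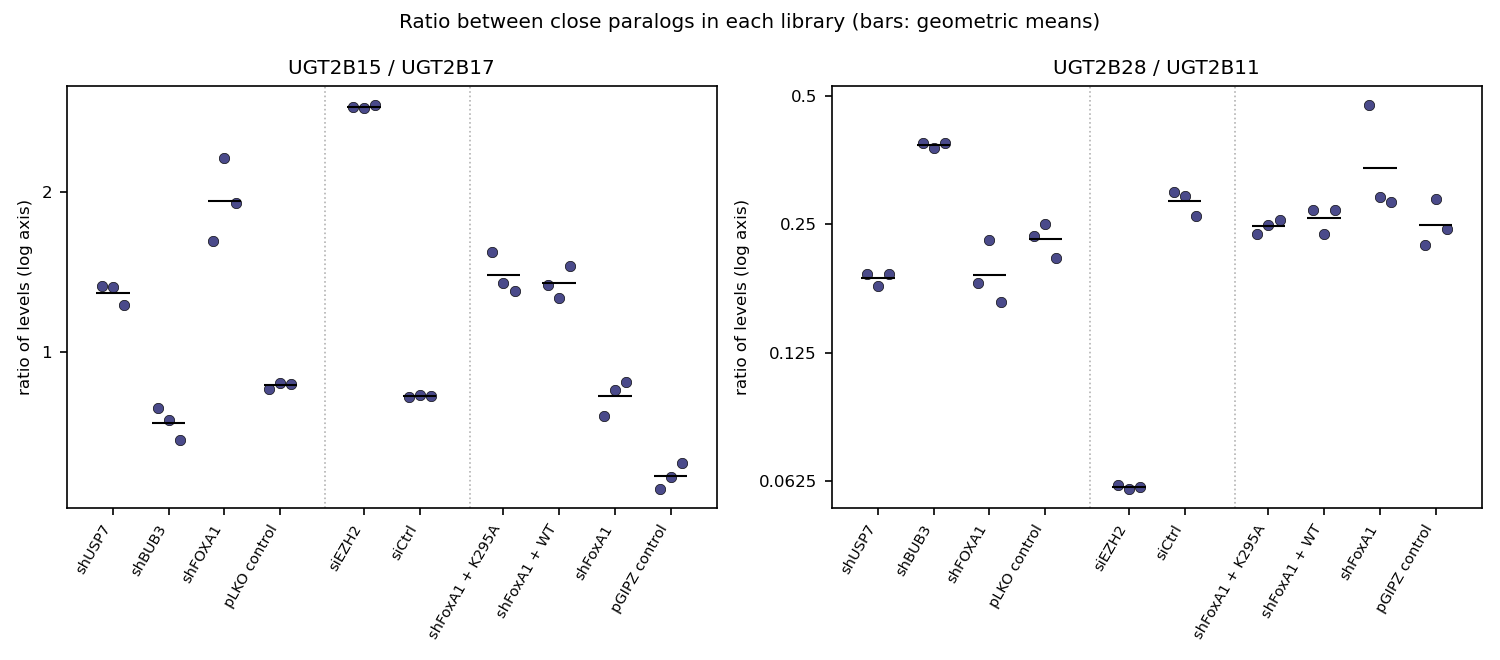
Ratio of UGT2B15 to UGT2B17 (left) and of UGT2B28 to UGT2B11 (right) in each library (points) on log axes, with the geometric mean of each group (bars). The siEZH2 libraries lie highest on the left, at 2.88 to 2.91, and lowest on the right, at 0.0600 to 0.0611.

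Within an experiment, the order of groups was the same for UGT2B17, UGT2B15, UGT2B11 and UGT2B28 in the pLKO experiment: shBUB3, shUSP7, pLKO control and shFOXA1 from high to low, with no neighbours overlapping. UGT2B10 had the pLKO control above shUSP7. In the pGIPZ experiment each of the 6 genes had both re-expression groups above both others by their means. Their libraries did not overlap those of shFoxA1 or the pGIPZ control in UGT2B17, UGT2B15, UGT2B28, UGT2B11 and UGT2B10, but the 2 forms overlapped each other in UGT2B17, UGT2B15, UGT2B28 and UGT2B11. In UGT2B7 all neighbours of that experiment overlapped.

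The members' patterns over 30 libraries, as log2(value + 1) minus the mean of the experiment's own control, were most alike for UGT2B15 and UGT2B17 (Pearson r = 0.936) and least for UGT2B15 and UGT2B28 (r = 0.680). The pLKO experiment holds the comparisons used to choose the genes. Without it UGT2B10 and UGT2B11, whose values may share reads, were most alike (r = 0.975, 18 libraries) and UGT2B15 and UGT2B28 least (r = 0.294). The points fall into 10 groups and share controls, so these values only describe. Among 11545 genes kept in all 3 fits, the pattern nearest to UGT2B28 was that of HES6, a transcription factor of the Hairy and enhancer of split family (r = 0.969, and 0.994 without the pLKO experiment). HES6 was at 25.1 ± 2.80 FPKM in siEZH2, against 78.3 ± 9.60 FPKM in siCtrl, and at 585 ± 16.6 RPKM in shFoxA1 + K295A, 677 ± 18.9 RPKM in shFoxA1 + WT and 46.0 ± 1.57 RPKM in shFoxA1, against 61.7 ± 2.66 RPKM in the pGIPZ control (SD, n = 3 each).

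CNKSR3, a scaffold protein, was nearest to UGT2B11 (r = 0.977, and 0.978 without the pLKO experiment). It was at 12.8 ± 0.102 RPKM in shFoxA1 + K295A, 13.2 ± 0.615 RPKM in shFoxA1 + WT and 3.86 ± 0.0524 RPKM in shFoxA1, against 5.17 ± 0.502 RPKM in the pGIPZ control. B4GALT2, a galactosyltransferase, was nearest to UGT2B17 (r = 0.971, and 0.971 without the pLKO experiment), followed by the ribosomal protein genes RPL30, RPL27A, RPL11 and RPL14 (0.961 to 0.968, and 0.750 to 0.920 without it). For UGT2B15 the nearest were PPP1R9B, ATXN7L3B, MRAS, NAT8L and B4GALT2 (0.936 to 0.945, and 0.759 to 0.858 without it), and for UGT2B10 KIAA0895, TARS2, LAS1L, EIF3H and EEF2 (0.950 to 0.965, and 0.779 to 0.909 without it). After HES6 and CNKSR3 came STAU2, LARS, SNX10 and TPGS2 for UGT2B28 and ARL1, EHMT2, MIPEP and TUBB4A for UGT2B11 (0.917 to 0.955, and 0.911 to 0.968 without it).

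Genes that androgens induce were measured beside the UGT2B genes, since androgens are known to lower UGT2B15 and UGT2B17. Of 4 such genes (KLK3, KLK2, TMPRSS2 and FKBP5), 4 fell and 0 rose in siEZH2 and in shUSP7, 3 fell and 0 rose in shBUB3, and 2 fell and 2 rose in shFOXA1. KLK3, which encodes PSA, was at 201 FPKM in siEZH2, against 1313 FPKM in siCtrl, and at 299 FPKM in shUSP7, against 1088 FPKM in the pLKO control (means, n = 3 each). Against the pGIPZ control, 3 fell and 1 rose in shFoxA1 + K295A and in shFoxA1 + WT, and 2 fell and 2 rose in shFoxA1. The list's median log2 differences were -1.16 in shUSP7, -0.72 in shBUB3, -0.001 in shFOXA1 and -2.43 in siEZH2. The medians over all genes were -0.02, 0.007, -0.15 and -0.16. Of all genes, 29.1% rose and 33.0% fell in shUSP7, and 33.3% and 32.0% in shBUB3. In shFOXA1 these shares were 25.2% and 45.1%, and in siEZH2 20.3% and 43.0%. Against the pGIPZ control they were 37.8% and 12.8% in shFoxA1 + K295A, 33.7% and 11.8% in shFoxA1 + WT, and 25.0% and 24.2% in shFoxA1. The siEZH2 libraries also had the lowest luminal marker sums, and 7 of 7 luminal markers fell in them, beside 43.0% of all genes. KLK3 and TMPRSS2 are in both lists. Of the 7 luminal markers, 5 fell and 1 rose in shUSP7, 5 fell and 2 rose in shBUB3, and 3 fell and 2 rose in shFOXA1. Against the pGIPZ control, 6 fell and 1 rose in each re-expression group, and 4 fell and 3 rose in shFoxA1. The shares of all genes are those given above. The part of these changes in the UGT2B values was not tested.

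The other UDP-glycosyltransferases were hardly expressed. Of 16 measured (UGT1A, UGT2A and UGT3A members, UGT8 and UGT2B4), 0 passed the filter in the pLKO and siRNA experiments and 1 in the pGIPZ experiment. That gene was UGT2B4, a liver enzyme of bile acid conjugation encoded at chr4:69480165-69526014 (minus strand), beyond UGT2B28. It was kept only through the re-expression groups, where it is high, so its values are a description with no test. It was at 3.40, 2.60 and 2.97 RPKM in shFoxA1 + K295A and 4.06, 3.60 and 3.91 RPKM in shFoxA1 + WT, against 0.0680, 0.120 and 0.110 RPKM in shFoxA1 (1.86 ± 0.088 and 2.14 ± 0.088). It was at 0.184, 0.150 and 0.241 RPKM in the pGIPZ control, below every library of both re-expression groups, and it was listed at 0 in all 3 shFOXA1 libraries. Of the liver markers only TTR and CYP2E1 reached 1 in any group, and the sum of all 9 was 6.11 to 7.57 RPKM in shFoxA1 + K295A, 6.70 to 8.58 RPKM in shFoxA1 + WT and 2.21 to 2.41 RPKM in shFoxA1, against 1.67 to 3.48 RPKM in the pGIPZ control. In shUSP7 that sum was 17.2 to 19.6 FPKM, against 2.36 to 3.29 FPKM in the pLKO control, with TTR as the 1 marker at 1 or more. The part of these markers in the UGT2B values was not tested.

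Genes that supply glucuronate or handle glucuronides changed in both directions. Of 10 listed, 6 were tested; 0 rose and 5 fell in shUSP7, 1 rose and 4 fell in shBUB3, 3 rose and 3 fell in shFOXA1, and 1 rose and 4 fell in siEZH2. Over all genes, 33.3% rose and 32.0% fell in shBUB3 and 25.2% rose and 45.1% fell in shFOXA1, the shares for the other comparisons being given above. The list's median log2 differences were -0.37 in shUSP7, -0.46 in shBUB3, -0.07 in shFOXA1 and -0.38 in siEZH2, beside -0.02, 0.007, -0.15 and -0.16 over all genes. UGDH, which makes UDP-glucuronic acid, fell to 10.3 FPKM in shBUB3, against 18.6 FPKM in the pLKO control (-0.79 ± 0.069, limma adjusted p = 1.2e-06), while UGP2, which makes its precursor UDP-glucose, rose to 19.1 FPKM, against 10.5 FPKM (0.81 ± 0.054, limma adjusted p = 1.3e-07). ABCC4, an exporter of conjugates, fell to 35.9 FPKM in shUSP7, 40.4 FPKM in shBUB3 and 32.6 FPKM in shFOXA1, against 73.7 FPKM in the pLKO control, and to 56.9 FPKM in siEZH2, against 100.9 FPKM in siCtrl (largest limma adjusted p = 1.1e-04). In the pGIPZ experiment 3 rose and 3 fell in shFoxA1 against its control, 2 rose and 2 fell in each re-expression group against shFoxA1, and 0 changed between K295A and WT.

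Enzymes of androgen synthesis and interconversion changed in both directions. Of 28 listed, 11 were tested in the pLKO experiment, 9 in the siRNA experiment and 10 in the pGIPZ experiment. In shUSP7 2 rose and 2 fell, in shBUB3 3 rose and 3 fell, in shFOXA1 3 rose and 7 fell, and in siEZH2 1 rose and 5 fell. The list's median was 0.08 in shUSP7, -0.02 in shBUB3, -0.29 in shFOXA1 and -0.67 in siEZH2, beside -0.02, 0.007, -0.15 and -0.16 over all genes. Over all genes, 29.1% rose and 33.0% fell in shUSP7, 33.3% and 32.0% in shBUB3, 25.2% and 45.1% in shFOXA1, and 20.3% and 43.0% in siEZH2. HSD3B1, which acts early in androgen synthesis, was at 2.50 FPKM in shUSP7 and 2.49 FPKM in shFOXA1, against 0.0576 FPKM in the pLKO control (means, n = 3 each). It was kept only through these 2 groups, so the counts for them include a gene that had to differ, as does that for shFOXA1 with HSD17B2. In siEZH2 the 1 that rose, CYP3A5, averaged 3.87 FPKM, against 0.409 FPKM in siCtrl. HSD17B6, among those that fell, averaged 0.329 FPKM in siEZH2, against 1.41 FPKM in siCtrl. CYP3A5 also rose to 1.82 FPKM in shFOXA1, against 0.844 FPKM in the pLKO control. In each case the lower group averaged under 1 FPKM, so these counts too depend on the filter. SRD5A1, a reductase that makes dihydrotestosterone, rose to 17.6 FPKM in shBUB3, against 10.7 FPKM in the pLKO control, and fell to 5.08 FPKM in siEZH2, against 12.7 FPKM in siCtrl (limma adjusted p = 1.5e-06 and 1.7e-06). HSD17B2, which inactivates testosterone by oxidation, averaged 0.0354 RPKM in shFoxA1 + K295A, 0.0668 RPKM in shFoxA1 + WT and 1.43 RPKM in shFoxA1, against 0.272 RPKM in the pGIPZ control. It was kept there only through shFoxA1, so these values too are a description with no test.

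Of 10 genes of steroid sulfation, the other main conjugation route, 7 were tested. The list mixes sulfotransferases and their sulfate supply with STS, which removes sulfate from steroids, and SUMF1, which activates sulfatases. Of the 7, 1 rose and 3 fell in shUSP7, 3 rose and 2 fell in shBUB3, 1 rose and 3 fell in shFOXA1, and 1 rose and 3 fell in siEZH2, STS among the 3, with medians between -0.21 and 0.07. All-gene medians lay between -0.16 and 0.007. Of all genes, 29.1% rose and 33.0% fell in shUSP7, and 33.3% and 32.0% in shBUB3. In shFOXA1 the shares were 25.2% and 45.1%, and in siEZH2 20.3% and 43.0%. STS averaged 0.565 FPKM in siEZH2, against 1.37 FPKM in siCtrl, so its count depends on the filter. SULT2B1, a steroid sulfotransferase, fell to 3.76 FPKM in siEZH2, against 10.6 FPKM in siCtrl (-1.30 ± 0.125, limma adjusted p = 1.1e-05), in libraries where UGT2B15 rose. PAPSS1 was the 1 gene of the list that rose there, to 48.0 FPKM, against 24.6 FPKM in siCtrl (0.93 ± 0.077, limma adjusted p = 3.8e-06). Of 18 factors reported to act on UGT2B genes, 9 were tested, with 1 up and 6 down in siEZH2 and 6 up and 1 down in shFoxA1 against the pGIPZ control, the 1 down being FOXA1. Over all genes, 20.3% rose and 43.0% fell in siEZH2, and 25.0% and 24.2% in shFoxA1. FOXA1 RNA did not pass the test in shUSP7 (129.5 ± 1.07 FPKM) or shBUB3 (128 ± 15.8 FPKM), against 116 ± 0.191 FPKM in the pLKO control (SD, n = 3 each; 0.16 ± 0.076 and 0.14 ± 0.076, limma adjusted p = 0.0856 and 0.127). The fit shares its spread over all groups of the experiment, including the wide shBUB3 group. In shUSP7 the FOXA1 values did not overlap the control, at 128.5 to 130.6 FPKM, against 115.6 to 115.9 FPKM, as was so for 76.6% of all genes. The libraries measure RNA only, and FOXA1 protein was not analysed here.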

How the data were processed

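RNA was sequenced from LNCaP cells (30 libraries, 10 groups of 3, grouped by sample title). A first table deposited by the authors gives FPKM per gene symbol (pLKO and siRNA libraries) and the other, also deposited, RPKM (pGIPZ libraries); each lists 26475 genes, 32 of them empty. The submitters' processing notes name STAR and hg38. Not given in the sources used here: STAR version, counter, strand setting, annotation. No columns were identical (0 pairs).

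Each experiment had its own limma 3.58.1 fit (R 4.3.3) on log2(value + 1), with 1 coefficient for each group, a mean-variance trend and two-sided moderated tests, after dropping genes that were at 1 or more in fewer than 3 of its libraries. Benjamini-Hochberg adjustment ran over all genes tested in a comparison, and adjusted p under 0.05 was called. The fit was tested on simulated data. Ratios had exact two-sided permutation tests. Read numbers are estimates from the steps between low values and transcript length, since total depth is not in the tables. Positions and transcripts are from GENCODE 29, promoters from RefSeq. Other steps used Python 3.11.15 (SciPy 1.17.1, pandas 2.3.3, NumPy 2.4.6; figures by matplotlib 3.10.9).

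The members, the gene lists and the tests were chosen with earlier results of these data known. Named were the 6 members, the targeted genes, FOXA1, up to 3 called genes per list and comparison with the largest change (the text gives part of them), and the 5 genes most like each member in pattern. Some genes of the lists are not reported here and were left out of the counts and sums. Alternatives were a pseudocount of 0.1, no filter, a filter at 0.1, median-ratio scaling, a fit of the 2 groups alone, a replicate block, each library left out, and close copies summed.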

Additional observations from a re-analysis of the deposited data

How the results depend on the processing

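Under every alternative, counts of called members (in shBUB3 and shFOXA1, of members past 2-fold, with no test) stayed within 1.5 times of those reported: 4 to 5 in shUSP7, 4 to 5 in siEZH2, 3 to 4 in shFoxA1 against its control, 5 to 6 in shFoxA1 + K295A against shFoxA1 or the pGIPZ control, 5 in each other comparison and 0 between K295A and WT. The pGIPZ counts include UGT2B10, which was kept there only through the re-expression groups. Single-member values were compared by direction and call in the tested comparisons, without their size. In shBUB3 and shFOXA1, and for summed close copies, they were compared by direction and size, without a call. On these measures 584 alternative values were the same, 54 moved in size, 7 lost a call, 1 gained one and 3 reversed. UGT2B17 in shUSP7 lost its call with a pseudocount of 0.1 (0.18, limma adjusted p = 0.123), with no filter (0.17, 0.0516) and without any of 5 libraries named above. Reversed were UGT2B10 in shUSP7 (0.72) and UGT2B28 in siEZH2 (0.34) when UGT2B10, UGT2B11 and UGT2B28 were summed, which by construction follows UGT2B11, and UGT2B10 in siEZH2 without the first siCtrl library (-0.0015, limma adjusted p = 0.993; -0.0015 to 0.16 over the libraries left out), a difference that was never called there. With a pseudocount of 0.1 the shFOXA1 differences were -5.94 for UGT2B17, -4.94 for UGT2B15 and -4.02 for UGT2B10. With libraries scaled by median ratios, the all-gene median shifted by 0.135 in shFOXA1, 0.128 in siEZH2 and -0.103 in shFoxA1 + K295A against the pGIPZ control, and no member changed direction or call. It moved the share of higher genes among those called to 48.1% in shFOXA1, 45.6% in siEZH2, 49.9% and 49.4% in WT and K295A against shFoxA1 and 48.5% and 49.5% in WT and K295A against the pGIPZ control, beside 35.9%, 32.1%, 65.9%, 67.9%, 74.0% and 74.7%. Between K295A and WT, 23 genes of all were called, 29 with median-ratio scaling and 26 with a pseudocount of 0.1. There were 19 with a filter at 0.1, 11 with no filter, 6 with the 2 groups alone and 9 to 18 with a library left out. Same-numbered libraries showed little common deviation (correlations of deviations from -0.185 to 0.127, over 0.1 in 2 of 18 pairs in the pLKO experiment and in 0 of 18 and 0 of 3 in the others). This check cannot exclude that they were handled together, and the main fits did not pair them. With the replicate block, 5 members were called in shUSP7, 4 in siEZH2, 3 in shFoxA1 against its control, 5 in each other comparison and 0 between K295A and WT, and 14 genes of all between K295A and WT. Few reads limit UGT2B7, UGT2B10 and the shFOXA1 values of UGT2B15 and UGT2B17.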
